A study of Mus musculus with 4 samples.

Results

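The 10 genes described here encode neuronal RNA-binding and splicing factors: Celf1, Celf2 and Celf4, Rbfox1, Rbfox2 and Rbfox3, Elavl2 and Elavl4, and Nova1 and Nova2. They are 10 of the 21938 protein-coding genes of GENCODE M21 on the mm10 chromosomes. The set was chosen by name with the extent of H3K27ac at Celf2 and Celf4 already known, so the covered lengths and domain ranks below were used in the choice and are given as a description, with no test. Every row of the replicated peak list and of the lists of both pools that lay in a gene body or within 50 kb of it was taken, which gave 714 replicated rows, 763 rows of pool C and 486 rows of pool D. Peaks went on beyond the 50 kb limit, as 20 replicated peaks lay 40 to 50 kb from a gene body and 11 lay 50 to 60 kb away. Those further out were not counted.

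The proteins bind RNA in the nucleus and the cytoplasm of neurons and other cells and set which exons are kept, which RNAs are stable and where they are translated. CELF proteins bind GU-rich RNA, RBFOX proteins bind GCAUG elements beside regulated exons, ELAVL (Hu) proteins bind U-rich and AU-rich stretches, and NOVA proteins bind YCAY clusters and were first known as antigens of a neurological autoimmune disease. RBFOX3 is the antigen of the NeuN antibody, a standard label of mature neurons. H3K27ac, acetylation of lysine 27 of histone H3, marks the nucleosomes at active promoters and enhancers, and long runs of it are common along genes that are highly transcribed in a tissue.

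The mark was mapped by ChIP-seq in the hippocampal layer of adult male B6CASTF1/J mice, F1 hybrids of a laboratory strain and the wild-derived CAST strain, at 2 months of age. The 4 samples formed 1 group with no treatment and no other genotype: pool C (biological replicate 1) and pool D (biological replicate 2), each of 7 pooled biosamples and each with 2 technical replicates, from fragments of 200 to 600 bp. The peaks of the technical replicates were deposited joined, so the pool was the unit of replication and the spread between single mice was not measured. Since the tissue was bulk, more marked cells and more marked alleles per cell cannot be told apart in any value below.

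There were 88930 replicated peaks, with a median width of 947 bp, beside 94836 for pool C and 63623 for pool D. Read totals were not among the values used, so the depth behind each peak is unknown and no interval for counting error can be given. A signal value is the authors' own value for a peak and is compared here only within a list, and a site with no peak means that none was called at this depth. All 5 general neuron markers and all 5 markers of hippocampal excitatory neurons, among them Zbtb20 and Camk2a, had a replicated promoter peak. The 5 markers each of astrocytes, oligodendrocytes and endothelial cells also had one, as did 3 of 5 markers of microglia, where C1qa and Tmem119 had none. Of all protein-coding genes, 61.6% had one. Median replicated promoter signals were 16.2 for general neuron and 16.0 for excitatory neuron markers. They were 8.26 for astrocyte, 5.90 for oligodendrocyte and 5.32 for endothelial markers, and 6.25 for the 3 marked microglia genes. The median of all genes with a promoter peak was 13.8. The part of non-neuronal cells in the values below was not tested.

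All 10 genes had a peak within 1 kb of an annotated start site in the replicated list and in the list of each pool. Of all protein-coding genes, 61.6% had such a peak in the replicated list, 62.3% in pool C and 57.9% in pool D. The strongest promoter peaks were those of Nova2 (signal 24.4 in the replicated list), Celf2 (24.2), Nova1 (24.1) and Rbfox3 (23.7). Celf4 (21.0), Celf1 (18.9), Rbfox2 (17.9) and Rbfox1 (17.5) followed, and both ELAVL genes were lowest, at 11.8 for Elavl4 and 6.94 for Elavl2. The Nova2 peak counted here ended upstream of the start in each list, and its replicated summit lay at -2582 bp from the start. A separate peak that began just inside the Nova2 body had 18.9 in the replicated list. The median of the 10 genes was 19.98, beside 13.8 for all genes with a promoter peak. These comparisons are not matched for the number of start sites. The 10 genes have 61 and the 21938 protein-coding genes 52546, so the set had more sites per gene at which a peak could count. This does not hold for each member, as Nova2 has 1 site.

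Over the whole gene body, promoter peaks included, the genes parted widely. Peaks covered 49.9% of the Celf1 gene body, 48.2% of Celf4, 37.6% of Celf2, 32.5% of Rbfox2, 30.7% of Rbfox3, 25.2% of Nova2 and 12.8% of Rbfox1. They covered 4.601% of Elavl4, 4.54% of Elavl2 and 2.79% of Nova1. The median share was 28.0% in the 10 genes and 3.85% in all protein-coding genes. In pool C alone these medians were 31.4% and 3.99%, and in pool D alone 13.6% and 1.92%. In 9 of the 10 genes, all but Nova1, the replicated share was over 1.5 times that of pool D, as in Celf4 (22.6%), Celf2 (20.7%), Rbfox3 (15.8%), Rbfox2 (14.9%), Nova2 (12.3%) and Rbfox1 (5.29%). Long genes can hold more peaks, so the 8 genes of 100 kb or more were also set beside the 2492 protein-coding genes of that length, and the medians were 21.7% and 4.38%. The strength of the promoter peak and the covered share did not go together in every gene, as Nova1 had one of the strongest promoter peaks and the lowest share.

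**Figure D1:**
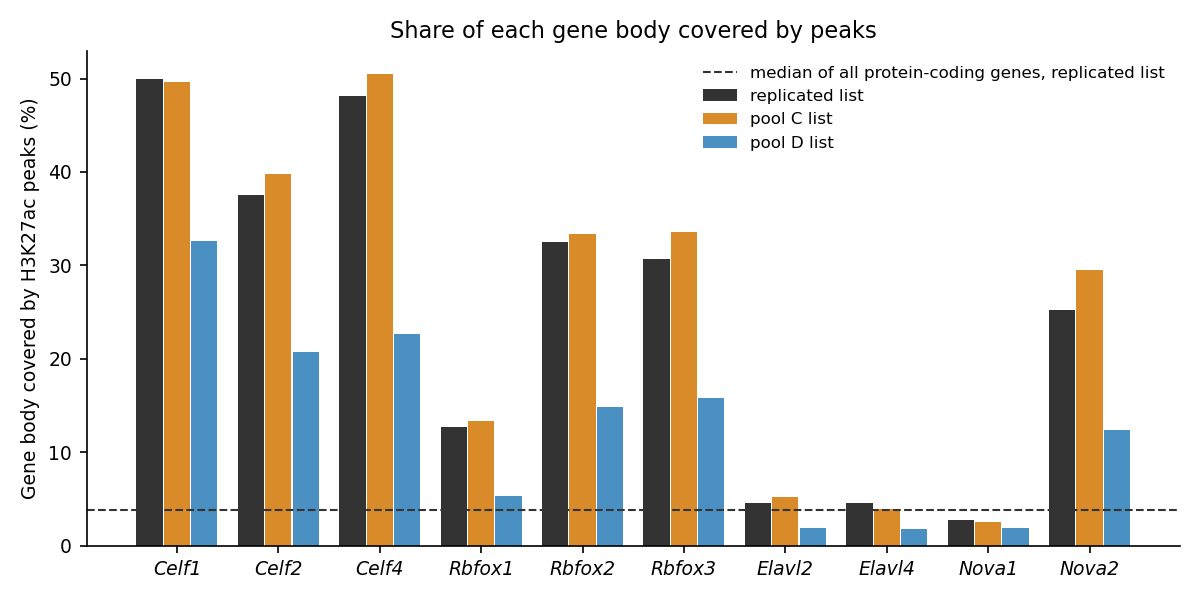
Share of each gene body covered by H3K27ac peaks (y axis, percent) for the 10 genes (x axis), with 1 bar each for the replicated list, the pool C list and the pool D list and a dashed line at the replicated-list median of all protein-coding genes, 3.85%. The CELF genes, Rbfox2, Rbfox3 and Nova2 stand well above the line in the 3 lists, Elavl2, Elavl4 and Nova1 lie near or below it, and the pool D bar is the lowest for each gene.

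Celf2 encodes a CELF protein of brain, heart and lymphoid cells that acts in splicing, polyadenylation and RNA stability. The gene spans 969.9 kb on the minus strand of chromosome 2 (6539694 to 7509563) and held 223 replicated peaks, 241 in pool C and 163 in pool D. These covered 364.5 kb, 385.4 kb and 200.8 kb of it, which gave it rank 2 among all protein-coding genes by covered length in the replicated and pool C lists and rank 3 in pool D. Of its 9 start sites, defined as transcript starts merged within 500 bp, 8 had a replicated peak, and all 5 with a protein-coding transcript were among them in each of the 3 lists. The unmarked one is the most upstream, of the non-coding transcript Celf2-215.

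The marked start sites of Celf2 differ in sequence. The site of Celf2-209, 113.4 kb into the gene, had a signal of 18.9 in the replicated list, 23.1 in pool C and 11.6 in pool D. The site of Celf2-214, 624.6 kb in and shared by 8 transcripts, had 14.4, 15.9 and 10.7. The sites of Celf2-228 and Celf2-207, 637.0 and 637.6 kb in, lie under 1 peak with 24.2, 27.8 and 16.1, the highest of the gene in each list. That peak was 10.6 kb wide in the replicated list. The 150 bases before 3 of these sites are shown with each CpG in capitals, because the gene's strongest peak lies at a CpG-dense promoter while 2 other strong peaks lie at CpG-poor ones. The last sequence shows 150 bases around the summit of the strongest peak away from any start site of the gene. They are chr2:7396199-7396348, chr2:6884997-6885146, chr2:6871973-6872122 and chr2:7270585-7270734 of mm10, all read on the minus strand, the strand of the gene, 5′ to 3′, from the C57BL/6J reference, which holds 1 of the alleles of the hybrid mice.
Celf2-209: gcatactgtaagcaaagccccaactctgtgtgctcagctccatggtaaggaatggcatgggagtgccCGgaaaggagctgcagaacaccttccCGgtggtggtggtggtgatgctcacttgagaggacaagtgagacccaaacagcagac
Celf2-214: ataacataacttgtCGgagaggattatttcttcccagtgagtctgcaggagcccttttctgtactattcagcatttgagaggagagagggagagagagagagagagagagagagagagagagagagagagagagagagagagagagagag
Celf2-207: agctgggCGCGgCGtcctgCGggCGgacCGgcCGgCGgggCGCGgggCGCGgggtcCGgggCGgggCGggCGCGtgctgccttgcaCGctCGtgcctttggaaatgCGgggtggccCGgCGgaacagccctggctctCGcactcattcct
Celf2 intron: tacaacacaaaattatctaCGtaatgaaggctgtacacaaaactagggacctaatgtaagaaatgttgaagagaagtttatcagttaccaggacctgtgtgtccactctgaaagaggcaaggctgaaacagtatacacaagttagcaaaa
The windows hold 2, 1, 23 and 1 CpG. The intronic summit lies 238.9 kb from the first start site, in a peak 4.0 kb wide with signals of 17.6, 21.3 and 10.1 in the replicated, pool C and pool D lists. Directly downstream lies a second peak, 11.7 kb wide, with 15.03, 17.0 and 11.5.

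Coverage along Celf2 was uneven. When each gene was cut into 10 equal parts numbered from its 5′ end, peaks covered 6.55% of part 1 of Celf2, 64.1% of part 2, 80.7% of part 3, 55.8% of part 5 and 10.1% of part 8. In pool D part 3 was again the most covered, at 63.4%, and part 1 the least, at 4.25%. The gene held 12 replicated peaks of 5 kb or wider, the widest at 17.1 kb (7240315 to 7257427), and 3 such peaks in pool D. Of the 223 replicated peaks, 11 lay near an own start site, 7 others had the summit in an exon and 205 in an intron.

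Celf1 encodes the CUG-binding protein known from myotonic dystrophy. The gene spans 79.1 kb on the plus strand of chromosome 2 (90940382 to 91019497) and held 22 replicated peaks, 20 in pool C and 23 in pool D. Its first start site had a signal of 18.9, 24.0 and 12.6 in the replicated, pool C and pool D lists. A second site 24.7 kb in, of the non-coding transcript Celf1-211, had 16.3, 20.0 and 11.2. Most of its coverage lay between these sites and just beyond, with 71.8% of part 2 of the gene covered, 88.9% of part 3, 96.2% of part 4 and 85.8% of part 5. The strongest peak away from start sites was intronic, 35.7 kb in and 6.11 kb wide, with signals of 14.1, 16.0 and 7.59. Celf1 had the largest covered share of the set in pool D, 32.7%, while in pool C its 49.7% was just below the 50.5% of Celf4.

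Celf4 encodes a CELF protein found mainly in brain, with excitability phenotypes when it is lost in mice. The gene spans 276.5 kb on the minus strand of chromosome 18 (25477632 to 25754157) and held 77 replicated peaks, 83 in pool C and 50 in pool D, covering 133.2, 139.5 and 62.6 kb. Of its 5 start sites, 3 had a replicated peak, and the 1 site with protein-coding transcripts, the most upstream, had signals of 21.0, 17.1 and 16.2. The most downstream marked site, of Celf4-208, had only a weak replicated peak of 2.34, which had no counterpart in pool D. The strongest internal peak lay 74.9 kb in and was 11.2 kb wide, with 19.8, 23.4 and 13.4, so that in pool C it exceeded the promoter peak of the same list. The next lay 156.4 kb in, with 16.0, 18.7 and 10.7, over the start of Gm3227, an annotated antisense transcript. Coverage reached 75.4% in part 8 of the gene and was 5.73% in part 10.

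Rbfox3 encodes the NeuN antigen. The gene spans 421.8 kb on the minus strand of chromosome 11 (118489762 to 118911597) and held 86 replicated peaks, 89 in pool C and 57 in pool D. Its coverage was concentrated in the 5′ part: parts 1 to 4 of 10 were covered to 67.5%, 58.7%, 50.1% and 60.5%, and the other 6 to between 5.73% and 23.0%. The main promoter, shared by Rbfox3-201 and 3 further coding transcripts, had signals of 23.7, 25.6 and 17.4. The annotated start 2.05 kb upstream of it, of Rbfox3-202, had a weak peak beside it, with 6.23 in the replicated list and 7.79 in pool C, and none in pool D. Internal coding starts were marked as well, Rbfox3-203 at 150.6 kb (8.24, 9.12 and 6.30) and Rbfox3-209 at 341.7 kb (6.94, 8.82 and 4.61). The strongest peak away from the own start sites lay 118.4 kb in, with 20.4, 23.0 and 13.8, and covered the start of the non-coding gene Gm11750.

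Rbfox1, a splicing factor of neurons, heart and muscle, is the longest of the 10 genes, at 1526.2 kb on the plus strand of chromosome 16 (5885355 to 7411526). It held 167 replicated peaks, 182 in pool C and 103 in pool D, covering 194.6, 203.2 and 80.7 kb. Despite its covered share of 12.8%, the covered length ranked 12th of all protein-coding genes in the replicated list. All 7 start sites carry 1 protein-coding transcript each, and 6 had a replicated peak. Signals were 17.5, 22.6 and 11.3 at the first site, of Rbfox1-205, and 8.77, 10.1 and 5.94 at the second, of Rbfox1-201, 463.8 kb further on. The third, of Rbfox1-202 at 923.9 kb, had no peak in any of the 3 lists. The 4 further sites, between 1184.5 and 1467.6 kb, had replicated signals of 4.37 to 5.09, near the list's median of 4.28.

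Between those weakly marked starts lay the strongest internal peaks of Rbfox1. The first was 3.48 kb wide with its summit at 1195.6 kb and had signals of 17.0, 16.8 and 13.8, so it was the strongest Rbfox1 peak of all in pool D. The next, at 1196.3 kb, had 12.8, 15.8 and 9.02. Part 8 of the gene, which holds them, was covered to 32.6%, part 9 to 21.7% and part 1 to 24.0%, while parts 3 and 7 were covered to 2.03% and 1.97%. The 150 bases before start sites 1, 2 and 4 and around the summit of the strongest internal peak are shown, CpG in capitals, to set the strong CpG-dense promoter beside a weaker CpG-dense one, a weak CpG-poor one and the intronic peak. They are chr16:5885205-5885354, chr16:6348988-6349137, chr16:7069696-7069845 and chr16:7080869-7081018 of mm10, plus strand, 5′ to 3′.
Rbfox1-205: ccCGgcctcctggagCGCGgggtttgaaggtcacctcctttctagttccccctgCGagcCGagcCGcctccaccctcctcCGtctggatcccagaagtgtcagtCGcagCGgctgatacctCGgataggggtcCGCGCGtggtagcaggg
Rbfox1-201: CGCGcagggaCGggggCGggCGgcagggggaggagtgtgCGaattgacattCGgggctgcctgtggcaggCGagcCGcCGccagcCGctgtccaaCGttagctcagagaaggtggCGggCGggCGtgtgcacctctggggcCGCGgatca
Rbfox1-203: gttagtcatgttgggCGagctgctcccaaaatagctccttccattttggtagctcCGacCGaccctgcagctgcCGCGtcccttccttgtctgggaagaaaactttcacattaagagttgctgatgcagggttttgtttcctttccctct
Rbfox1 intron: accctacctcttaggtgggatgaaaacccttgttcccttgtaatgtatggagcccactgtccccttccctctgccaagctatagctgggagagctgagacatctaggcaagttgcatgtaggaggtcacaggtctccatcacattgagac
They hold 13, 17, 5 and 0 CpG. The second window had more CpG than the first and a lower signal in each list.

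Rbfox2 is expressed in neurons and in many other tissues. The gene spans 228.0 kb on the minus strand of chromosome 15 (77078990 to 77307004) and held 47 replicated peaks, 50 in pool C and 28 in pool D. It was marked at 3 strong start sites. The first, of Rbfox2-214, had signals of 15.3, 17.5 and 10.98. The second, of Rbfox2-213 at 61.4 kb, had 17.9, 22.8 and 10.9, under a peak 7.38 kb wide. The third strong one, at 153.5 kb and shared by 6 coding transcripts, had 12.6, 16.2 and 9.18. Which of the first and second was stronger depended on the list, and the gap in pool D was small. Rbfox2-211, a coding transcript near the 3′ end, had a peak of 4.07 in pool C and none in the replicated and pool D lists. Within 10 kb of its main start site, 15.02 kb were covered, against a median of 5.29 kb in the 10 genes and 1.58 kb in all protein-coding genes. Most covered were part 3 of the gene, at 63.8%, and part 10, at 66.5%.

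The ELAVL genes looked different. Elavl2 and Elavl4 encode HuB and HuD, which stabilise RNAs of differentiating and mature neurons. Elavl2 (150.02 kb, minus strand of chromosome 4, 91250763 to 91400785) held 8 replicated peaks, 7 in pool C and 3 in pool D. Elavl4 (148.2 kb, minus strand of chromosome 4, 110203722 to 110351909) held 7, 6 and 3. No peak in either body was 5 kb or wider, and the widest were 2.70 and 1.59 kb in the replicated list. Outside the start sites of both genes the strongest replicated peak had a signal of 4.05, in Elavl4, with a counterpart in pool C and none in pool D.

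Only some of the annotated starts of the ELAVL genes were marked. Elavl2 had a replicated peak at 3 of 8 sites. The 2 most upstream sites had none in any list, and the marked ones, 24.4 to 28.7 kb in, carry 9 of its 12 coding transcripts. Their signals were 5.83, 7.11 and 4.75 at Elavl2-209 and 6.94, 8.82 and 4.95 at Elavl2-207, the lowest main promoter of the 10 genes in each list. Elavl4 had a replicated peak at 5 of 8 sites. Its first site, of Elavl4-207, had 10.99, 12.9 and 7.55, and the sites of Elavl4-204 and Elavl4-203, at 64.4 and 65.02 kb, shared a peak with 11.8, 13.6 and 8.57, so that both promoters differed little in each list. The replicated summit of the shared peak lay 731 bp from the Elavl4-204 start and 93 bp from that of Elavl4-203. In pool D this peak did not cover the Elavl4-204 start. The 150 bases before Elavl2-207, before Elavl2-216, a coding start with no peak in any list, and before Elavl4-207 and Elavl4-204 are shown, CpG in capitals, because the 2 about equally marked Elavl4 promoters differ in CpG content. They are chr4:91372070-91372219, chr4:91356683-91356832, chr4:110351910-110352059 and chr4:110287528-110287677 of mm10, minus strand, 5′ to 3′.
Elavl2-207: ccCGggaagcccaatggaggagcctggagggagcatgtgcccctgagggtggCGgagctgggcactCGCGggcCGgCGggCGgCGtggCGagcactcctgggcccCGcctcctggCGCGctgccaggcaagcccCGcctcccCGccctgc
Elavl2-216: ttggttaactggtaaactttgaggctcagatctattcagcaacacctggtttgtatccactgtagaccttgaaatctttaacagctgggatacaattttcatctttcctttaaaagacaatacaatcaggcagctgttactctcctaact
Elavl4-207: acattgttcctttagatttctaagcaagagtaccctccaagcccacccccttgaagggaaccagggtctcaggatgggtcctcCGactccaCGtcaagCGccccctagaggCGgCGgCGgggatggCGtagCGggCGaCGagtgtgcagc
Elavl4-204: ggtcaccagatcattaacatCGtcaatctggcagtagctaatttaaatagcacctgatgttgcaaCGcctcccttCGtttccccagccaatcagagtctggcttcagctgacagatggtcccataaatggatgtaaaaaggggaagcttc
They hold 14, 0, 10 and 3 CpG. The 150 bases before Elavl4-203, the start nearer the summit, are not shown and hold 2.

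Nova1 and Nova2 encode KH-domain splicing factors of neurons, with Nova2 prominent in the cortex and hippocampus. Nova1 (124.4 kb, minus strand of chromosome 12, 46694517 to 46818929) had 1 replicated peak in its whole body, over the first 3 start sites, with signals of 24.1, 26.7 and 17.2. It was 3.75 kb wide, and parts 2 to 10 of the gene held no replicated peak and none in pool D. Nova2 (39.4 kb, plus strand of chromosome 7, 18925888 to 18965319) has 1 annotated start site. Its strongest peak within 1 kb, with 24.4, 27.5 and 17.2, ended just upstream of the start, at 18925826 in the replicated list, and its summit lay at -2582 bp from the start. The first peak inside the body began 102 bp after the start and had 18.9, 22.6 and 12.2. Nova2 also held intronic and exonic peaks in its middle, the strongest with 7.06, 7.92 and 5.03 at 22.8 kb. The 150 bases before the first Nova1 site, before Nova1-204, a coding start 98.1 kb in with no peak in any list, and before the Nova2 start are shown, CpG in capitals, to set a marked against an unmarked start of 1 gene. They are chr12:46818930-46819079 and chr12:46720860-46721009, minus strand, and chr7:18925738-18925887, plus strand, of mm10, 5′ to 3′.
Nova1-201: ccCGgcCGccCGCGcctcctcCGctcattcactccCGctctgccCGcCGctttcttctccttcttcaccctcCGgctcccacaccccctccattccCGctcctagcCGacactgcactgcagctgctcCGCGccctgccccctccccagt
Nova1-204: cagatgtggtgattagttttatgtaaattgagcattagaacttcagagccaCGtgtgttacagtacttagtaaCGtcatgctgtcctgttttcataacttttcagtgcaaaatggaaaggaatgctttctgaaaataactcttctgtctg
Nova2-201: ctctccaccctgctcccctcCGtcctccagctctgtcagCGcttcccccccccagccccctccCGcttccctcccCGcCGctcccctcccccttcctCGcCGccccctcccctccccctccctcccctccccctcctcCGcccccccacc
They hold 13, 2 and 8 CpG.

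**Figure D2:**
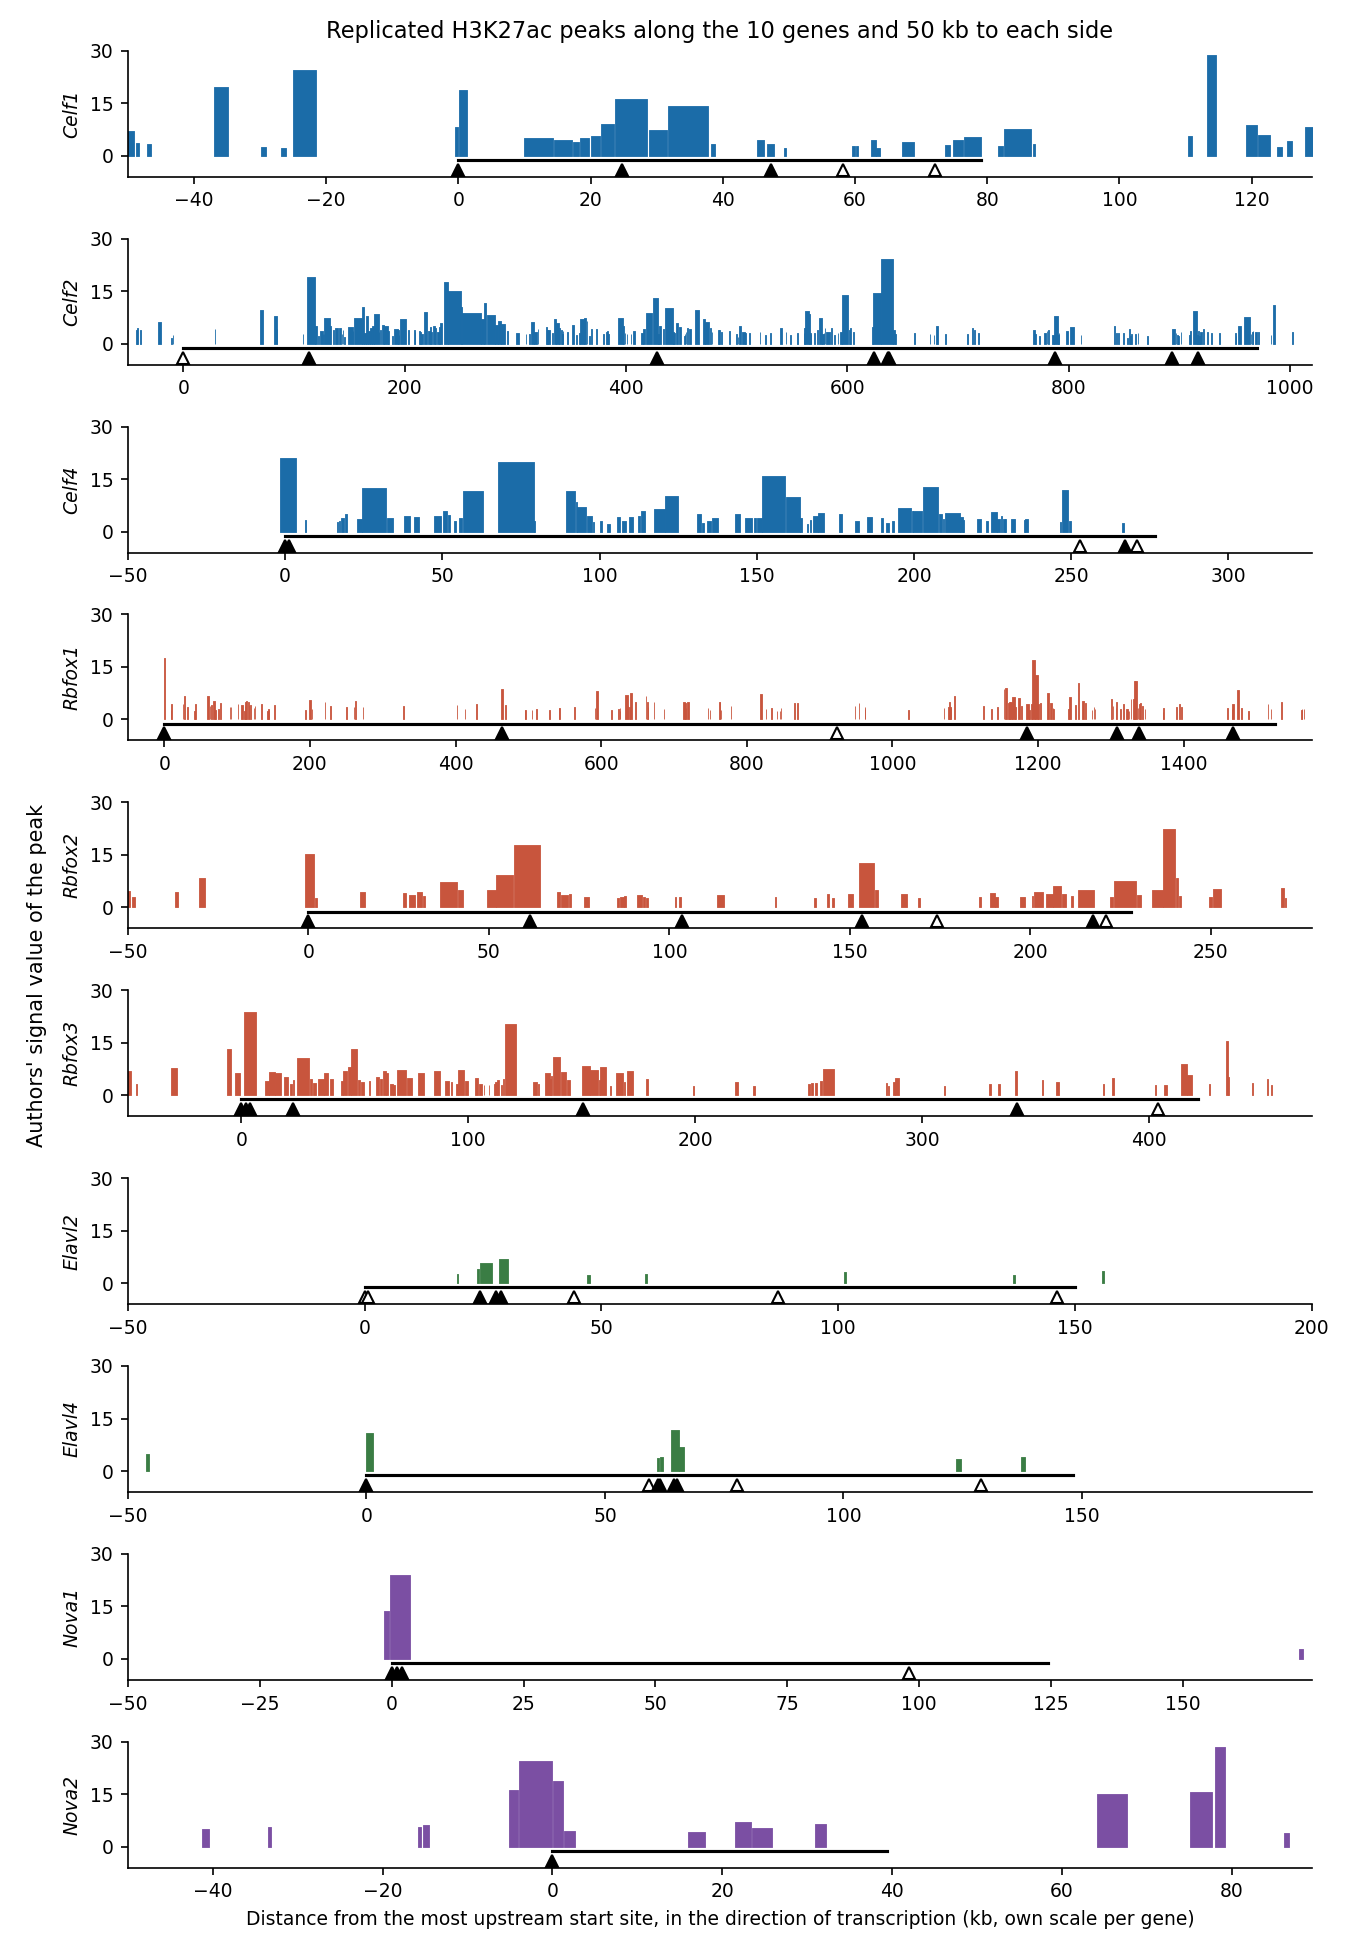
Replicated H3K27ac peaks along the 10 genes and 50 kb to each side. The x axis is the distance in kb from the most upstream start site in the direction of transcription (own scale per gene), the y axis is the authors' signal value, each bar is 1 peak, the black line is the gene body, and triangles are start sites, filled where a replicated peak lay within 1 kb. Peaks fill much of Celf1, Celf2, Celf4 and the 5′ part of Rbfox3, are spread unevenly over Rbfox1, with its strongest at the first start site and near 1196 kb, and are few in Elavl2, Elavl4 and Nova1.

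Over the 10 genes, 644 replicated peaks lay in gene bodies. Of these, 44 were within 1 kb of an own start site, 19 others had the summit in an exon and 581 in an intron. Of the 61 start sites, 43 had a replicated peak, 44 a peak in pool C and 35 in pool D. Over all protein-coding genes, 41.3% of 52546 start sites had a replicated peak. Of the 41 member sites with a protein-coding transcript, 32 had a replicated peak, beside 50.8% of such sites over all genes. Start sites of 1 gene share peaks and neighbourhood and are not independent of each other.

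To describe how far the marked stretches ran, peaks at most 10 kb apart were joined to domains, which were ranked by the sum over their peaks of signal times width in kb. A start site of 6 of the 10 genes lay in one of the first 500 domains of the replicated list, where 4.59% of all protein-coding genes had one. In pool C it was 6 of 10, against 4.56% of all genes, and in pool D 4 of 10, against 3.69%. The replicated count was 3 of 10 when peaks were joined only up to 2.5 kb apart, and 3 of 10 among the first 250 domains. The domains of Celf2 and Celf4 were known when the set was chosen, so nothing is read from these counts.

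The Celf2 domain ranked 3rd of 32474 and spanned 498.3 kb with 157 peaks, the longest span of any domain in the replicated list. In rank, not in genomic position, it came between the domains of Msra, a methionine sulfoxide reductase, and Gria1, an AMPA receptor subunit. A separate Celf2 domain at the CpG-dense starts ranked 282nd, spanned 21.3 kb and was covered to 94.2%. The domain ranked directly above it held no coding start site and the one below held that of Rgs7bp. The Celf4 domain ranked 15th, spanned 237.8 kb and held 73 peaks. Its neighbours in rank were the domains of Grin2a, an NMDA receptor subunit, and Zmynd8, a chromatin reader. The Rbfox3 domain ranked 40th with 185.2 kb and 64 peaks, and the domain ranked directly above it held the start sites of Camta2, Inca1, Kif1c, Spag7 and Zfp3.

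The other 3 genes had a domain among the first 500, with lower ranks. The Rbfox1 domain, around the internal start of Rbfox1-203 and not the strong first promoter, ranked 373rd and spanned 96.8 kb. Its neighbours in rank were domains with 4933407L21Rik and Itm2c and with Dusp19, Nckap1 and Nup35. The Celf1 domain ranked 407th with 49.98 kb, in rank between those of Gabbr1 and of the metallothionein genes Mt1, Mt2 and Mt3. The Rbfox2 domain ranked 425th with 88.7 kb, in rank between one with Rnf114 and Spata2 and one with no coding start site. The summed value at rank 500 was 260.5. The nearest member domain inside was that of Rbfox2, with 287.9, and the nearest outside was the second Rbfox2 domain, ranked 580th with 238.5. The best domain ranked 1258th for Nova2, 2054th for Nova1, 8346th for Elavl2 and 8399th for Elavl4.

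**Figure D3:**
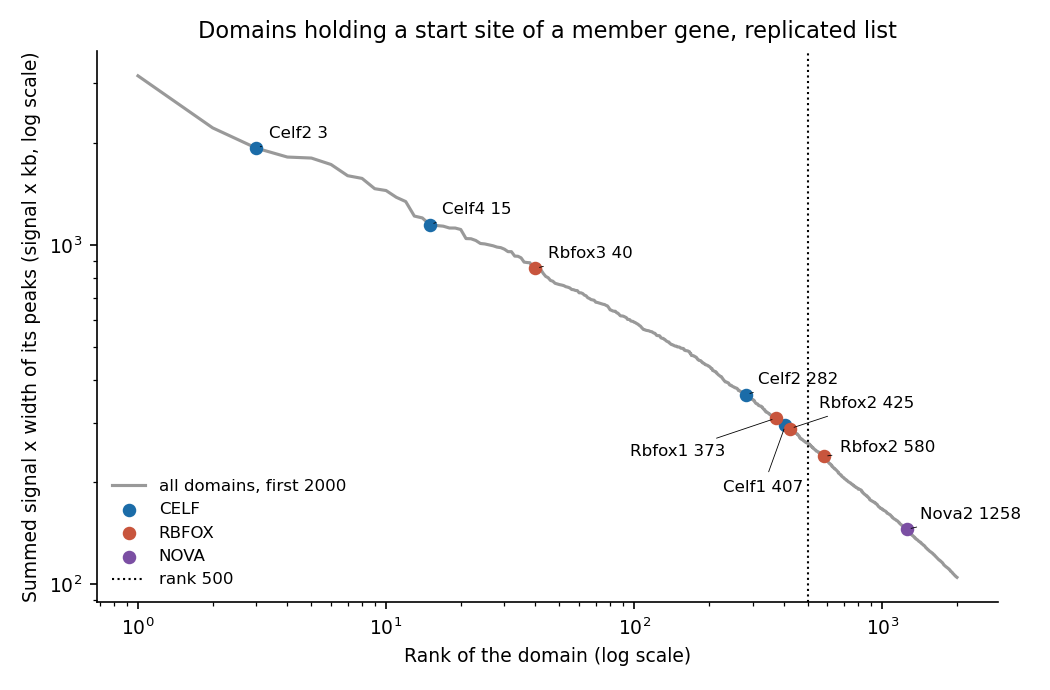
Rank of each domain in the replicated list (x axis, log scale) against the sum of signal times width of its peaks (y axis, signal times kb, log scale), for the first 2000 domains (grey line), with points for domains holding a start site of one of the 10 genes, labelled with gene and rank, and a dotted line at rank 500. Celf2, Celf4 and Rbfox3 lie among the first 40, and Rbfox1, Celf1, Rbfox2 and a second Celf2 domain between 282 and 425.

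Several of these domains broke up in pool D. The top Celf2 domain there spanned 141.1 kb, ranked 16th and held no start site, while the domain at the CpG-dense starts ranked 187th. For Celf4 the best pool D domain ranked 309th, spanned 27.1 kb and held no start site, beside 25th and 240.4 kb in pool C. For Rbfox1 the best pool D domain ranked 1010th and held no start site, and one with start sites ranked 2921st. In pool C the best Rbfox1 domain, with a start site, ranked 350th. Rbfox3 kept a domain with start sites over 110.5 kb, ranked 95th, Celf1 one ranked 304th and Rbfox2 one ranked 484th. Pool D also had fewer and narrower peaks in general: its list covered 52.5% of the length that the pool C list covered.

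Gene by gene, the length covered in pool D was 36.1% (Elavl2) to 75.2% (Nova1) of that in pool C, with a median of 45.0% in the 10 genes. The median was 46.1% in protein-coding genes of 100 kb or more and 58.8% in all protein-coding genes with coverage in pool C. The covered length was thus lower in pool D in each of the 10 genes. Of the 644 replicated peaks in the bodies, 218 (33.9%) were overlapped over at least 50% of their length in both pool lists, 307 in pool C alone, 8 in pool D alone and 111 in neither. Of all replicated peaks, 42.6% were so overlapped in both. By gene the share in both pools was 35.4% in Celf2, 27.3% in Celf4, 29.9% in Rbfox1 and 59.1% in Celf1. Depth differences between the pools could not be measured, and their part in these shares was not tested.

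**Figure D4:**
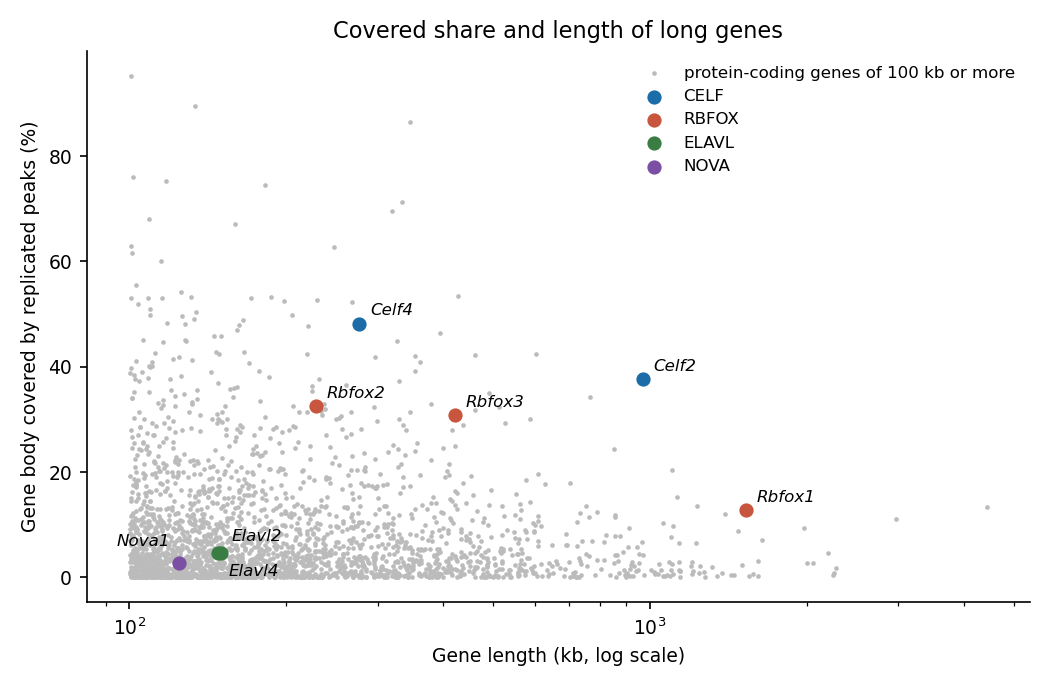
Gene length (x axis, kb, log scale) against the share of the gene body covered by replicated peaks (y axis, percent) for the 2492 protein-coding genes of 100 kb or more (grey), with the 8 such genes of the set in colour by family. Celf2 is both long and widely covered, at 37.6% of 969.9 kb, while Elavl2, Elavl4 and Nova1 lie among the bulk of long genes.

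Among the 2492 long genes, Celf4 ranked 36th by covered share, Celf2 81st, Rbfox2 113th, Rbfox3 131st and Rbfox1 532nd. Elavl4, Elavl2 and Nova1 ranked 1216th, 1225th and 1539th. By covered length over all 21938 genes, Celf4 ranked 31st, Rbfox3 33rd and Rbfox2 112th in the replicated list. In pool D these were 43rd, 35th and 145th.

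Sequence composition differed between marked and unmarked start sites. In the 300 bp before a site, the median ratio of observed to expected CpG was 0.419 at the 43 member sites with a replicated peak and 0.209 at the 18 without. Of the marked sites 16 were CpG-rich, here a ratio of 0.6 or more, and of the unmarked sites 0. Over all protein-coding genes, 46.1% of marked and 4.85% of unmarked start sites were CpG-rich. CpG-poor starts with strong peaks existed in each list, as at Celf2-214 and Celf1-211 above. Peaks away from starts were poorer in CpG than peaks near starts, in 300 bp around the summit. The median ratio was 0.405 for the 44 member peaks near an own start site and 0.153 for the 581 intronic ones. Of the intronic peaks, 7 (1.2%) were CpG-rich. Among all replicated peaks, the median was 0.573 within 1 kb of any annotated start. It was 0.199 for those further away, of which 2.5% were CpG-rich.

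**Figure D5:**
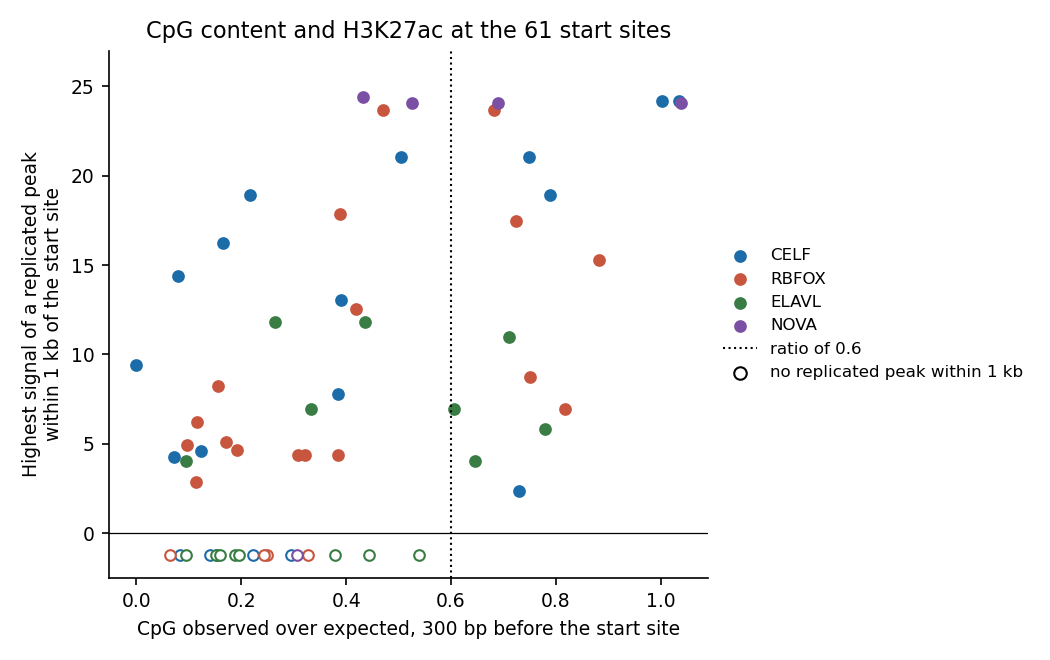
Observed over expected CpG in the 300 bp before each of the 61 start sites (x axis) against the highest signal of a replicated peak within 1 kb (y axis), coloured by family, with open circles below 0 for sites with no replicated peak and a dotted line at a ratio of 0.6. All 18 open circles lie left of the line, and filled points lie on both sides of it.

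Of the 9 short motifs searched on both strands in the 300 bp windows, the GC box GGGCGG was present at 16 of 43 marked and 2 of 18 unmarked member sites, and at 24.5% of all 52546 sites. All 10 genes had it at a marked site or more. The share of all protein-coding genes that do was not computed, and a gene with several start sites has more windows to match. Nothing is read from this count of genes. The E-box CAGCTG was at 8 marked and 5 unmarked sites (15.2% of all sites), and the E-box CACGTG at 0 marked and 4 unmarked sites (5.75% of all). The AP-1 motif TGANTCA was at 3 marked sites and no unmarked one (7.94% of all), and TATAAA at 4 and 4 (16.2% of all). The RFX motif GTTGCCATG was at 1 marked site (0.497% of all). The CRE TGACGTCA, the NRF1 motif GCGCATGCG and the EGR motif GCGTGGGCG were at 0 member sites, beside 1.15%, 1.07% and 0.39% of all sites. Matches were counted per motif, whether or not they overlapped another, and a match is only a run of letters in the window.

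Other genes of RNA processing were read from lists drawn up from general knowledge. The 5 other members of the CELF and ELAVL families all had a promoter peak in the 3 lists. Of all protein-coding genes, 61.6% had one in the replicated list, 62.3% in pool C and 57.9% in pool D. Celf5, Celf6 and Celf3 had replicated signals of 24.8, 23.7 and 15.9, and Elavl3 and Elavl1, which encodes the ubiquitous HuR, 15.4 and 14.3. Peaks covered 90.1% of Celf3 (13.9 kb), 57.3% of Celf5, 24.2% of Celf6, 23.7% of Elavl3 and 20.8% of Elavl1. Celf5 and Celf3 lay in domains ranked 466th and 483rd. The ELAVL genes with low coverage were thus the 2 described above, while Elavl1 and Elavl3, both shorter than 50 kb, were covered over a larger share of their length.

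All 21 neural RNA-binding genes outside those families had a replicated promoter peak, beside 61.6% of all protein-coding genes. The highest signals of the 21 were at Qk (35.7), a regulator of glial RNAs, Ptbp2 (24.98), the neural polypyrimidine tract-binding protein, and Stau1 (22.0), an RNA transport factor. The median covered share of the 21 was 12.1%. Of them, 3 lay in a first-500 domain, beside 4.59% of all protein-coding genes. All 23 general splicing genes had a replicated promoter peak too, with a median signal of 26.04. The highest values were at Srsf6 (39.8), Srsf4 (38.7) and U2af2 (34.6), which binds the polypyrimidine tract of introns. The median covered share of the 23 was 17.0%, beside 28.0% in the 10 genes. Their median length covered within 10 kb of the main start was 2.95 kb, beside 5.29 kb. These shares are not matched for length, as the general splicing genes are 3.19 to 42.3 kb long and the 10 genes 39.4 to 1526.2 kb.

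Of 16 RNA-binding genes known from germ cells, epithelia, muscle and embryos, 5 had a replicated promoter peak, 6 in pool C and 4 in pool D. Over all protein-coding genes the shares with a promoter peak were 61.6%, 62.3% and 57.9%. The highest signals of the 16 were at Rbm24 (13.4), Nanos3 (8.91) and Dazl (7.87). A1cf, Boll, Ddx4 and Esrp1 were among the 11 with none in the replicated list. All 12 genes whose transcripts are textbook targets of these splicing factors had one, led by Grin1 (26.9), an NMDA receptor subunit, Mapt (26.6), which encodes tau, and Gphn (26.6), which encodes gephyrin. Their median covered share was 18.0%.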

How the data were processed

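The H3K27ac peaks were deposited as 4 lists on mm10, per the labels' descriptive text: replicated peaks of pools C and D, peaks of both pools' joined alignments, and peaks of either pool alone with its technical replicates joined. For each peak the authors give a signal value, whose scaling is not stated, −log10 p and −log10 q, and the summit position as another whole number. The sources used here do not name the aligner or peak caller, and no read totals were used, so the depth of each sample is unknown. The 4 lists, 350032 peaks on 21 chromosomes, held 0 peaks beyond the chromosome ends of GRCm38.

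Genes and transcripts came from GENCODE M21 and sequences from GRCm38, with Python 3.11.15 and figures by Matplotlib 3.10.9. Transcript starts within 500 bp were merged to start sites, a promoter peak lay within 1 kb of one, and domains joined peaks up to 10 kb apart. Covered lengths count each base once. With 1 group, no comparison between conditions was tested, and p-values are not given, and technical replicates could not be compared because their peaks were joined. The list from both pools together and the pool lists served as alternatives, with stricter −log10 q and signal minimums and other windows and distances. The calculations were tested on simulated data, where 120 of 120 planted promoter peaks among 200 genes were recovered and 0 others called. Members and gene lists were chosen with earlier results of these data known. Named genes were all members and family mates, the 3 highest promoter signals and up to 4 unmarked genes of each other list, and the coding genes of domains ranked next to a member's first-500 domain. The domain ranked below that of Rbfox3 is not reported here. The search of internal peaks and their base composition was added after the peaks were seen. Windows that overlap an annotated exon and windows of 1 chromosome are not printed.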

Additional observations from a re-analysis of the deposited data

How the results depend on the processing

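The 6 counts and medians over the 10 genes were recomputed under 53 alternatives in all, and 47 stayed within 1.5 times the main count, or within 1 SD of both pools for the covered length. That SD, 1822 bp, came from the pool values, which were themselves among the alternatives, so the 3735 bp of pool D counted as unmoved. A count of 10 of 10 cannot rise. The 47 therefore does not measure robustness. Replicated peaks in gene bodies numbered 644, 259 with a signal above the list's median and 218 when overlap in both pool lists was required. By pool they numbered 438 to 687. The median length covered around the main start was 5289 bp within 10 kb, 3172 bp within 2 kb and 11796 bp within 25 kb, and 3735 to 6311 bp by pool. Of the 10 genes, 6 had a start site in one of the first 500 domains, 3 when peaks were joined up to 2.5 kb, 3 among the first 250 domains, and 4 to 6 by pool. All 10 had a promoter peak under each alternative run. Start sites with a peak numbered 35 to 44 by pool, 32 of 41 when only coding starts were kept and 36 when a peak had to cover a transcript start of the site, both added after the data were seen. Of the 77 other RNA genes, 66 had a promoter peak, beside 61.6% of all protein-coding genes. Covered shares of single genes moved by more than 1 SD of the pools in 19 of 60 cases, 10 of them with pool D alone. This SD too came from the pool values, and each replicated share lay nearer to that of pool C than of pool D. The 19 therefore does not measure robustness either. Unknown depth limits what a missing peak can show. No paired analysis was possible because all samples formed 1 group.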

Other observations

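Inside the 10 gene bodies, 24 other annotated genes start, none of them protein-coding, and 17 had a replicated peak within 1 kb of the start. The share over all non-coding genes was not computed, so nothing is read from this count. The highest signals were those of Gm11750, a lincRNA in Rbfox3 (20.4), Gm24056, an snRNA gene in Rbfox2 (17.9, the peak that marks the start of Rbfox2-213), Gm3227 and Gm25845 in Celf4 (both under a peak of 16.0) and Gm13389, antisense in Celf2 (14.4, the peak that marks the start of Celf2-214). Mir6402 in Elavl2 lay by a peak of 6.94, which marks the start of Elavl2-207. Peaks shared in this way cannot be assigned to either gene. All 3 genes starting inside Nova1 had none.

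In the 50 kb beside the genes lay 70 replicated peaks, 16 of them near the start of another protein-coding gene. The highest counts were beside Celf1 (18 peaks, with a highest signal of 28.8), Rbfox2 (13 peaks, 22.4) and Rbfox3 (11 peaks, 15.5). Nova2 had 10, with a highest signal of 28.5, and 7 of them lay near a start of Ccdc61, Irf2bp1, Mypop or Pglyrp1. Celf4 had 0 peaks in its flanks while its body held 77.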
